A study of Mus musculus with 24 samples.

Results

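The rescue experiment asked how far gene expression in the anterior heart field (AHF) of *Tbx1* mutant mouse embryos returned to control levels once 1 allele of *β-catenin* was also removed. It comprised 8 of the 24 arrays of the series, the 4 titled as rescue mutants and the 4 titled as their controls, and all 8 were used. Rescue embryos carried Mef2c-AHF-Cre/+, lost *Tbx1* in the Cre domain (Tbx1 f/- or Tbx1 f/f, the labels not saying which array held which) and carried 1 *β-catenin* flox allele. For the controls the sources differ: Cre-free embryos heterozygous for both floxed genes (Tbx1 f/+;β-catenin f/+) according to the methods, wild type and Cre-carrying Tbx1 f/+ littermates according to the labels. If the methods hold, the rescue embryos differ from their controls by the Cre transgene as well as by the deletions, and the effects of Cre and of the deletions cannot be told apart. Embryos of every group were dissected at E9.5, when they had 19 to 21 somite pairs. The other 2 experiments, each with 4 mutant and 4 control arrays of its own, were *Tbx1* LOF (Mef2c-AHF-Cre/+ with Tbx1 f/- or f/f) and *β-cat* LOF (Mef2c-AHF-Cre/+;β-catenin f/f), and they are used only for comparison. The methods give Cre-free Tbx1 f/+ and β-catenin f/+ embryos as their respective array controls. Females of the rescue crosses came from a Tbx1 f/f;β-catenin f/f line of mixed C57Bl/6 and Swiss Webster origin. In a further set of crosses, for *Tbx1* LOF and rescue embryos, the females were Tbx1 f/+;β-catenin f/+. The Tbx1 f/f line was congenic in Swiss Webster and the β-catenin f/f mice were of mixed background. Background may thus differ between the experiments, which was not tested. Mef2c-AHF-Cre acts in the AHF and its descendants, so floxed alleles are not recombined in the other dissected tissues, while Tbx1 f/- embryos lack 1 allele in every cell. Each array held RNA of several embryos pooled by genotype, and the labels do not say which litters or crosses a pool came from, so the p-values measure the spread between these pools.

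The AHF is the pharyngeal mesoderm that is added to the arterial pole of the heart tube to form the outflow tract and right ventricle. *Tbx1*, a T-box transcription factor, keeps these progenitors undifferentiated and maintains local FGF signalling, and its loss causes outflow tract defects such as a common arterial trunk. β-catenin, encoded by *Ctnnb1*, is the transcriptional effector of canonical Wnt signalling, which can act for or against cardiac differentiation according to stage.

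The values are log2 intensities of Affymetrix Mouse Gene ST 1.0 arrays, with 1 value per gene and 19938 genes. Markers of the AHF had values of 10.75 to 10.93 for *Isl1*, 10.48 to 10.78 for *Mef2c* and 9.96 to 10.28 for *Fgf8* over the 8 arrays. The tissue also held other cells, since *Actc1*, a sarcomeric actin, read 12.44 to 13.30 over the 8 arrays and *Hbb-bh1*, an embryonic globin, 13.40 to 13.61. In such bulk tissue, fewer cells of a type and less RNA per cell cannot be told apart. Control replicate 3 stood apart from the other arrays, with a score of 19.4 on the first principal component (35.2% of the variance) against −9.81 to 2.23. *Xist*, the transcript of the inactive X chromosome, read 6.53 in rescue replicate 1 and 6.59 in control replicate 1 but 11.3 to 12.3 in the other 6 arrays, and the Y-linked *Kdm5d* read 7.81 in rescue replicate 3 but 8.99 to 9.79 in the others. The pools thus differed in the sex of their embryos. Without both arrays numbered 1, genes higher and lower at p under 0.05 numbered 615 and 932, against the 271 and 556 given next.

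No gene differed between rescue and control AHF tissue after Benjamini-Hochberg adjustment (limma, 0 of 19938 genes, 0.0%), and the lowest adjusted p was 0.846. At p under 0.05 before adjustment, the rescue arrays had 271 higher genes (1.36%) and 556 lower ones (2.79%). Of these, with a fold change over 1.5, 9 were higher (0.0451%) and 1 was lower (0.00502%), and with a fold change over 1.3 these were 24 (0.12%) and 4 (0.0201%). All 4 rescue arrays lay above all 4 controls in 147 genes (0.737%) and below them in 446 (2.24%), and such genes are called separated here. Every gene named below had an adjusted p of at least 0.997, and a separated gene has a two-sided exact permutation p = 0.0286, the smallest that 4 against 4 arrays allow. The separations were small, with a median size of 0.13 on the log2 scale among the higher genes and 0.10 among the lower, and 16 and 15 of them exceeded 1.2-fold.

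The excess of lower over higher genes depended in part on the scaling. The median change over all genes was −0.015, and higher genes were 24.8% of the separated ones and 32.8% of those at p under 0.05. When the 8 arrays were quantile normalized again over these genes, the separated genes were 259 higher (1.3%) and 381 lower (1.91%), or 40.5% higher, and those at p under 0.05 were 445 (2.23%) and 531 (2.66%), or 45.6% higher. Without control replicate 3 the separated genes were 454 and 876, and those at p under 0.05 were 436 and 596. Without control replicate 1 the genes at p under 0.05 were 387 and 1004. Fewer arrays separate more easily, so the first of these pairs is not comparable in size with the counts above.

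**Figure D1:**
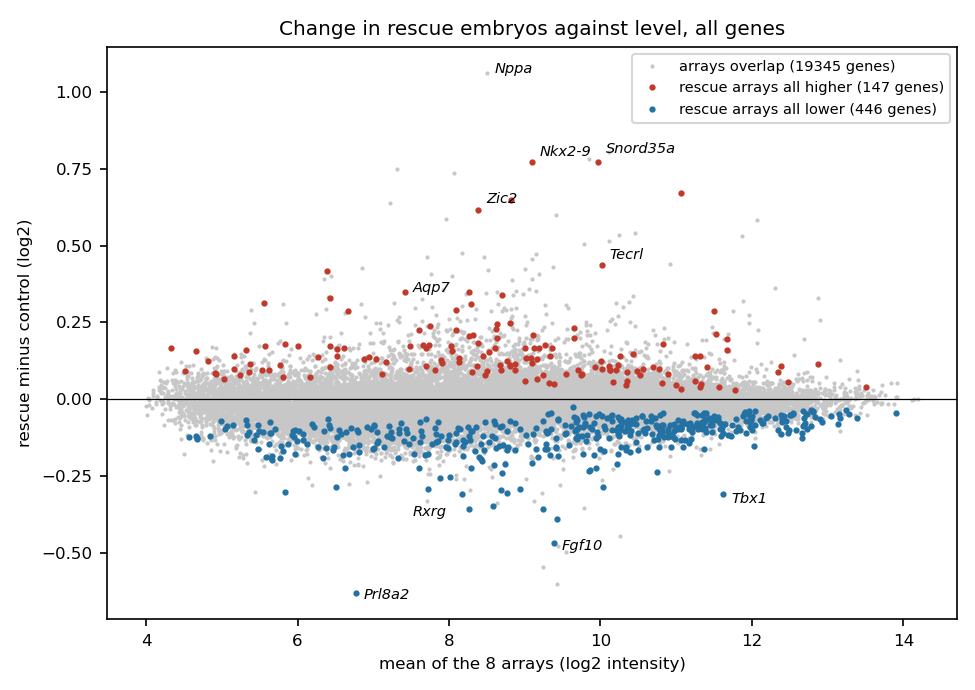
Change in rescue embryos (rescue minus control, log2, y axis) against the mean log2 intensity of the 8 arrays (x axis), 1 point per gene. Grey points are the genes whose arrays overlapped, and coloured points the 147 genes with all rescue arrays higher and the 446 with all lower; most coloured points lie close to 0.

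*Tbx1* itself remained lower in rescue tissue. It read 11.39, 11.49, 11.51 and 11.49 in rescue replicates 1 to 4 (mean 11.47 ± 0.05, SD, n = 4) and 11.83, 11.95, 11.75 and 11.58 in control replicates 1 to 4 (11.78 ± 0.16, SD, n = 4). Every rescue array lay below every control, and the difference was −0.31 (SE 0.07), or 0.808-fold (0.723 to 0.903 at 95% confidence, exact permutation p = 0.0286). In *Tbx1* LOF the corresponding difference was −0.64. The 2 effects differed by 0.34 on the log2 scale (95% confidence interval 0.06 to 0.61), which did not pass adjustment (limma, adjusted p = 1.0). *Ctnnb1* read 13.14, 13.12, 13.11 and 13.14 in rescue and 13.19, 13.16, 13.16 and 13.20 in controls. The groups did not overlap, but the difference of −0.05 was small (95% confidence interval −0.13 to 0.03). Whether these probe sets read the floxed exons is unknown here, and the values do not measure how complete the deletion was. By qRT-PCR, with Tbx1 f/+ tissue as control, the study reports the mRNA of both genes as reduced in rescue AHF.

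Of the 6 genes that passed an adjusted p under 0.05 in *Tbx1* LOF (limma, 0.0301% of genes, 1 higher, 0.00502%, and 5 lower, 0.0251%), 5 remained separated in the same direction in rescue embryos, each by less. Over all genes, 0.737% were separated higher and 2.24% lower in rescue. The 6 were picked for their values in *Tbx1* LOF, so smaller values in rescue alone do not measure a return to control levels. They were called in the fit of all 24 arrays, which gave 0 genes for rescue. The 8 *Tbx1* LOF arrays fitted alone gave no such gene, and the rescue counts above came from the 8 rescue arrays alone. *Aqp7*, a water and glycerol channel, read 7.64, 7.55, 7.45 and 7.74 in rescue and 7.20, 7.39, 7.15 and 7.25 in controls. No control reached them, and the difference was 0.35 (SE 0.07), where *Tbx1* LOF had 0.62. *Gfra1*, a co-receptor for GDNF, read 9.74, 9.87, 9.98 and 9.98 against 10.28, 10.22, 10.14 and 10.07. Each rescue array was lower than each control, by 0.29 (SE 0.07), against a difference of −0.58 in *Tbx1* LOF. *Prkcb*, a protein kinase C, read 9.17, 9.09, 8.92 and 9.08 against 9.48, 9.64, 9.32 and 9.25, a difference of −0.35 (SE 0.09) beside −0.52. *Nrg1*, a ligand of ErbB receptors, read 9.03, 9.06, 8.94 and 8.95 against 9.19, 9.21, 9.31 and 9.10, a difference of −0.21 (SE 0.05) beside −0.40. In both genes no rescue array reached the lowest control. *Cldn1*, a tight junction protein, was the exception: it read 7.84, 8.20, 8.19 and 8.09 in rescue and 8.31, 7.80, 8.0 and 8.03 in controls. Those groups overlapped, and the difference was 0.05 where *Tbx1* LOF had −0.62, a gap between the effects of 0.67 (95% confidence interval 0.34 to 1.0, limma, adjusted p = 1.0).

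Of 19 measured genes of an AHF progenitor list, 7 were lower at p under 0.05 and 1 was higher, where 2.79% and 1.36% of all genes were, and 6 were separated lower and 1 higher, where 2.24% and 0.737% of all genes were. The median was −0.053, against −0.015 over all genes. The list, made with earlier results of these data known, holds the 6 genes just described, and of its other 13 members 3 were lower at p under 0.05, 0 were higher, and 2 were separated. The 3 were *Fgf10*, *Sema3c* and *Tlx1*. *Fgf10*, an FGF ligand made by AHF cells, read 9.10, 9.37, 9.10 and 9.03 in rescue and 9.63, 9.95, 9.44 and 9.46 in controls. The groups did not overlap, and the difference of −0.47 (SE 0.11), or 0.723-fold (95% confidence interval 0.607 to 0.861), stood beside −0.39 in *Tbx1* LOF, with a difference between the 2 effects of −0.08 (95% confidence interval −0.39 to 0.23). *Sema3c*, a guidance signal for neural crest entering the outflow tract, read 9.77, 9.68, 9.75 and 9.76 against 10.13, 9.94, 9.83 and 9.98, again without overlap (−0.23, SE 0.06). *Tlx1*, a homeobox factor of the branchial arches, differed by −0.35 (SE 0.12) with overlap. *Isl1* (−0.03), *Mef2c* (0.00) and *Fgf8* (−0.09), which define the field, did not pass.

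**Figure D2:**
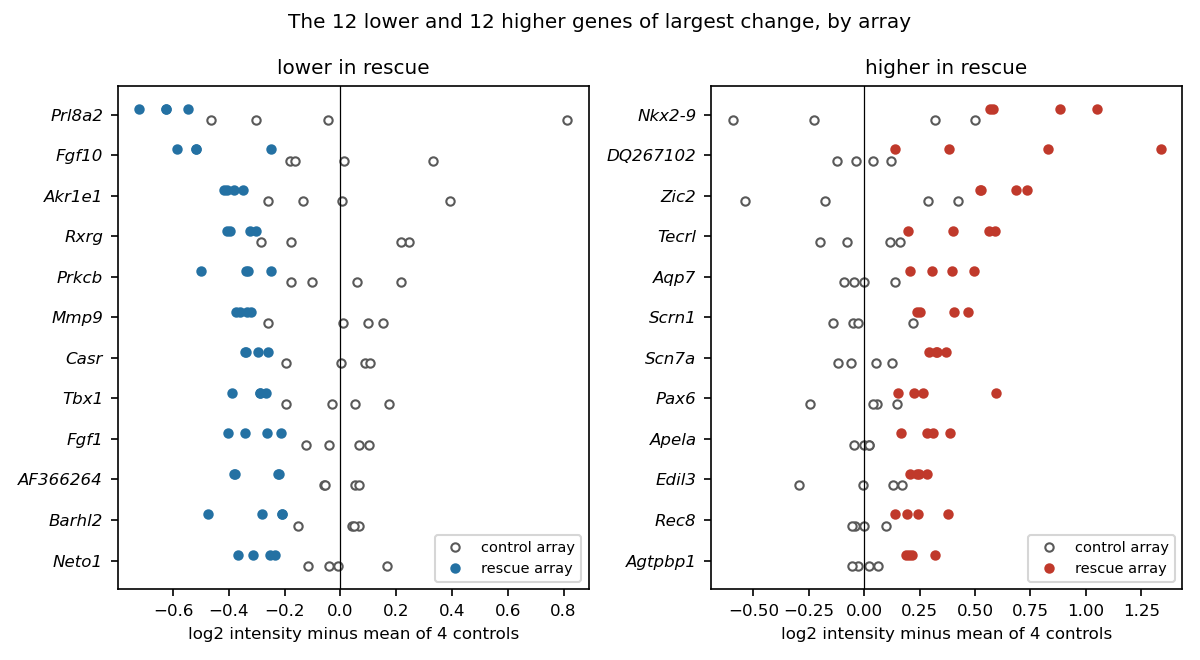
Log2 intensity of each array minus the mean of the 4 controls (x axis) for the 12 lower and the 12 higher named genes of largest change; open circles are control arrays and filled circles rescue arrays. Within each gene all filled circles lie on 1 side of all open circles, by which the genes were chosen.

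Most FGF pathway genes had a difference below 0. Of 27 ligands, receptors and feedback targets, 23 did, as did 60.9% of all genes. At p under 0.05, 6 were lower and 1 was higher, where 2.79% of all genes were lower, and the other 20 did not pass. Of the 27, 4 were separated lower and 0 higher, beside 2.24% of all genes separated lower, and the median was −0.082, which repeated quantile normalization left at −0.081. The higher gene was the receptor *Fgfr3*. Among the ligands, besides *Fgf10* and *Fgf18*, *Fgf20* differed by −0.13 (SE 0.05) and *Fgf16* by −0.17 (SE 0.07). *Fgf1*, a ligand outside the list, read 8.52, 8.66, 8.58 and 8.71 in rescue and 9.02, 8.98, 8.88 and 8.80 in controls, lower in all rescue arrays by 0.31 on the log2 scale (SE 0.06). *Spry1*, a feedback inhibitor that FGF signalling induces, read 10.84, 10.82, 10.80 and 10.85 against 10.91, 10.99, 11.01 and 10.89, also without overlap (−0.12, SE 0.04), and the target *Etv5* was the last of the 6. The count of 6 was 3 without control replicate 2 and 2 with all 24 arrays in 1 fit.

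Of signals and receptors around the outflow tract, several were separated. Over all genes, 2.79% were lower and 1.36% higher at p under 0.05, and 2.24% were separated lower and 0.737% higher. Among 14 class 3 semaphorins and receptors, 3 were lower at p under 0.05 and 0 higher, and 2 were separated lower. The 3 were *Sema3c*, the receptor *Plxna4* (−0.24, SE 0.06, separated) and *Sema3e* (−0.33, SE 0.10, overlapping). In the retinoic acid pathway, 2 of 19 genes were lower at p under 0.05 and 1 higher, and 3 were separated lower and 1 higher. *Rxrg*, a retinoid X receptor, read 8.05, 8.14, 8.04 and 8.12 in rescue and 8.69, 8.66, 8.27 and 8.16 in controls, separated but with control replicate 4 only just above the rescue arrays (−0.36, SE 0.11). The receptor *Rarg* differed by −0.12 (SE 0.04) and *Cyp26b1*, which degrades retinoic acid, by 0.13 (SE 0.05). *Erbb3*, a receptor for neuregulins, differed by −0.14 (SE 0.05).

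Canonical Wnt target genes showed little difference. Of 20 measured, 1 was lower at p under 0.05 and 0 were higher, 0 were separated, and the median was −0.016, beside −0.015 over all genes, or 0.010 after repeated quantile normalization. The gene below the threshold was *Nkd2*, a feedback inhibitor of the pathway (−0.15, SE 0.06). Of 46 Wnt ligands, receptors and regulators, *Wnt5a*, a mostly noncanonical ligand, was lower (−0.14, SE 0.05) and *Sfrp1*, a secreted antagonist, higher (0.18, SE 0.07), both overlapping. Of 29 BMP genes, *Grem1*, a BMP antagonist, was lower (−0.22, SE 0.06). It read 9.68, 9.86, 9.88 and 9.88 in rescue and 10.17, 9.99, 10.09 and 9.95 in controls. No rescue array reached a control, and *Tbx1* LOF had −0.38.

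Of 44 sarcomere genes, 30 had a difference above 0, where 39.1% of all genes did. At p under 0.05, 0 were higher and 2 were lower (*Mybph*, −0.12, and *Tnnt1*, −0.13), and 0 were separated. These counts are near the shares of all genes, of which 1.36% were higher and 2.79% lower, and 0.737% were separated higher and 2.24% lower. The median was 0.062, beside 0.490 in *Tbx1* LOF and −0.552 in the *β-cat* LOF arrays. *Myh6*, the α-myosin heavy chain, read 10.21, 10.34, 9.86 and 10.56 in rescue and 9.30, 10.90, 8.81 and 8.84 in controls. Control replicate 2 was above every rescue array and the other 3 controls below every one, and the difference of 0.78 (SE 0.40) did not pass p under 0.05. *Nppa*, the atrial natriuretic peptide of the heart chambers, read 9.64, 8.83, 8.02 and 9.64 against 7.27, 9.54, 7.67 and 7.40, with the same control high (1.06, 95% confidence interval −0.06 to 2.19, exact permutation p = 0.143). The mean over the sarcomere list was 0.26 in control replicate 2 and −0.225 to −0.029 in the other 3 controls, relative to the mean of the 8 arrays, and the rescue arrays at −0.072 to 0.18 lay among them. By the study's account the heart tube was left out of the AHF dissection, and the share of heart muscle cells in the pools was not tested. The interval of *Nppa* does not show that rescue and control had equal levels.

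*Tecrl*, an enzyme-like protein of heart muscle, was the chamber gene that stayed separated. It read 10.00, 10.39, 10.36 and 10.20 in rescue and 9.92, 9.60, 9.72 and 9.96 in controls, higher in all rescue arrays by 0.44 (SE 0.10), beside −1.24 in *β-cat* LOF and 0.80 in *Tbx1* LOF. *Scn7a*, a sodium channel relative, was also separated higher here and in *Tbx1* LOF (0.33, SE 0.06, beside 0.53). *Pam*, an enzyme of peptide amidation listed with the chamber genes, was separated lower (−0.16, SE 0.05). Of 24 calcium handling and conduction genes, 1 passed, the T-type calcium channel *Cacna1h* (0.18, SE 0.07), with overlap.

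Among the heart lists, that of the posterior second heart field and inflow region, which supply the atria, held the most genes higher at p under 0.05. Of 19 measured genes, 17 had a difference above 0 and 6 were higher at p under 0.05, where 39.1% and 1.36% of all genes were. None of the 19 was lower at that p, and the median was 0.20, beside −0.262 in *β-cat* LOF and 0.304 in *Tbx1* LOF. *Gata4* read 10.19, 10.72, 10.76 and 10.48 in rescue and 10.20, 10.32, 10.22 and 10.14 in controls. Rescue replicate 1 lay among the controls and the other 3 above them (0.32, SE 0.11). *Tbx5*, which marks the posterior field, read 10.25, 10.83, 10.62 and 10.70 against 10.54, 10.24, 10.01 and 10.27, with the same rescue array low (0.34, SE 0.13). *Osr1* (0.29, SE 0.11), *Gata6* (0.13, SE 0.05) and *Nr2f1* also passed with overlap. *Nr2f2*, an atrial and venous regulator, was the member whose arrays were separated, at 11.34, 11.38, 11.45 and 11.34 against 11.23, 11.16, 11.26 and 11.29 (0.14, SE 0.05). *Gata5*, listed with the cardiac transcription factors, read 11.57, 11.68, 11.60 and 11.67 against 11.40, 11.50, 11.44 and 11.35, higher in every rescue array (0.21, SE 0.05). Of the 23 measured genes of that list, 4 were higher at p under 0.05 and 2 lower, where 1.36% and 2.79% of all genes were. *Tbx3*, a T-box factor of the posterior field outside the posterior list, was lower at p under 0.05.

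The posterior group depended on single arrays. Its mean over the list, relative to the 8 arrays, was −0.139 in rescue replicate 1 and 0.081 to 0.211 in the other 3 rescue arrays, against −0.145 to −0.029 in controls. The count of 6 higher genes was 13 without rescue replicate 1, 1 without rescue replicate 2, 3 without rescue replicate 3 or 4, and 2 with all 24 arrays in 1 fit. Of the 17 alternatives run for these genes, *Tbx5* kept p under 0.05 in 9, *Osr1* in 12 and *Gata4* in 14.

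Of the genes that the study names for these arrays, 16 were analysed here. They were chosen on these samples and are not independent evidence of a direction. Of the 16, 3 were higher at p under 0.05 (*Tbx5*, *Gata4* and *Gata6*), 1 was lower (*Tbx1*), and the arrays of *Tbx1* and *Ctnnb1* were separated. Differences in rescue beside *Tbx1* LOF were 0.22 and 0.77 for the ligand *Wnt2*, 0.27 and 1.02 for the Wnt antagonist *Sfrp5*, and 0.20 and 0.69 for the receptor *Erbb4*. They were 0.19 and 0.71 for *Tbx20*, 0.15 and 0.42 for the smooth muscle coactivator *Myocd*, and 0.08 and 0.44 for *Bmp2*. They were 0.11 and 0.57 for *Bmp10*, 0.12 and 0.37 for *Smarcd3*, 0.09 and 0.41 for *Zfpm2*, and −0.03 and 0.48 for *Hand1*. In each of these 10 the rescue arrays overlapped their controls and the value in rescue was the smaller. The gap was tested for every gene and none passed adjustment. *Hand1*, an outflow and left ventricular factor, had the gap of smallest p among them, −0.51 (95% confidence interval −0.91 to −0.11, limma, adjusted p = 1.0). The study reports *Tbx5*, *Gata4*, *Gata6*, *Wnt2*, *Myocd*, *Bmp2*, *Bmp10*, *Erbb4* and *Sfrp5* as normalized in rescue. It reports *Hand1*, *Zfpm2*, *Smarcd3* and *Tbx20* as not normalized, from arrays and qRT-PCR. The control of that qRT-PCR was Tbx1 f/+ tissue, not the rescue controls. Its array model had a batch block, which was not used here.

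**Figure D3:**
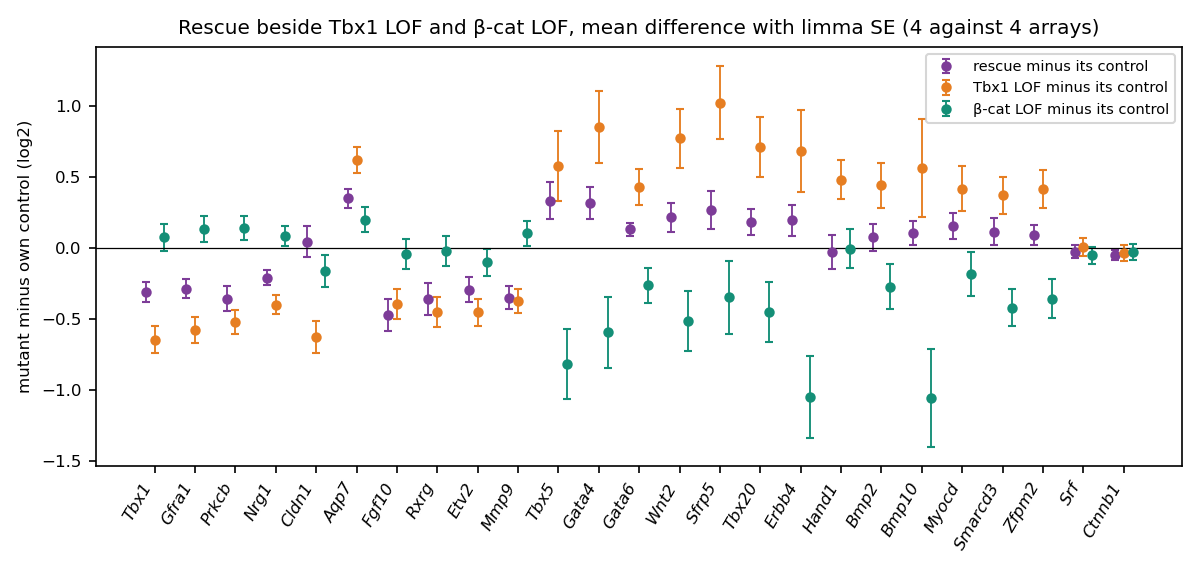
Mutant minus own control (log2, y axis) for *Tbx1*, *Ctnnb1*, genes the study names and genes described in the text, in the rescue, *Tbx1* LOF and *β-cat* LOF experiments. Points are means of 4 against 4 arrays and bars are limma standard errors. Rescue bars come from the fit of its 8 arrays and the others from the fit of all 24, so their lengths are not comparable. The rescue points of *Fgf10*, *Rxrg* and *Mmp9* lie near those of *Tbx1* LOF, and those of the genes from *Wnt2* to *Zfpm2* lie nearer to 0.

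Over all genes, those called in *Tbx1* LOF had smaller values in rescue. Of the 55 genes higher there at p under 0.05 and over 1.5-fold (0.276%), 53 had a difference above 0 in rescue, with a median of 0.22 against 0.76 in *Tbx1* LOF, but 6 passed p under 0.05 and 2 were separated. Of the 10 lower there (0.0502%), 6 were below 0 in rescue, where 60.9% of all genes were, with a median of −0.053 against −0.65. In rescue 1 of the 10 was lower and 2 were higher at p under 0.05, and 1 was separated in each direction. With the lower limit of 1.3-fold, 11 of 42 lower genes (0.211% of all genes) were lower at p under 0.05 in rescue. Of the 42, 8 were separated lower. Of 125 higher genes (0.627%), 16 were higher at that p and 7 were separated higher. Over all genes in rescue, 2.79% were lower and 1.36% higher at that p, and 2.24% and 0.737% were separated lower and higher. Genes picked for a large value in 1 experiment tend to have smaller values in any other, so the smaller medians alone do not measure a return to control levels. Of the 85 genes lower in *β-cat* LOF at p under 0.05 and over 1.5-fold (0.426%), 72 had a difference above 0 in rescue, with a median of 0.15 against −0.81.

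The direct test of the 2 effects passed adjustment for 0 genes. At unadjusted p under 0.05 the rescue effect exceeded the *Tbx1* LOF effect in 153 genes (0.767%) and was below it in 188 (0.943%). Against *β-cat* LOF it was above in 364 genes (1.83%) and below in 602 (3.02%), and 0 passed adjustment.

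Some genes separated in rescue were also separated in *Tbx1* LOF, whose arrays and controls are different ones. Of the 446 lower genes, 20 (4.48%) were separated lower in *Tbx1* LOF as well, where 0.973% of all genes were. That is 10.3% of the 194 separated lower there, and 1 was separated the other way. Besides *Tbx1*, *Fgf10*, *Gfra1*, *Prkcb*, *Nrg1*, *Rxrg* and *Grem1*, the 20 included *Etv2*, *Mmp9* and the platelet-derived growth factor gene *Pdgfa*. *Etv2*, a master regulator of endothelial fate, read 8.76, 8.92, 8.76 and 8.73 in rescue and 9.15, 9.32, 8.92 and 8.93 in controls, a difference of −0.29 (SE 0.09) beside −0.45. Rescue replicate 2 lay just under the lowest control, and the other 3 well below. *Mmp9*, a matrix metalloproteinase, read 8.42, 8.37, 8.43 and 8.39 against 8.76, 8.90, 8.85 and 8.49 (−0.35, SE 0.08, beside −0.37). Of the 147 higher genes, 13 (8.84%) were separated higher in *Tbx1* LOF, where 1.32% of all genes were, which is 4.92% of the 264 there, and 1 was separated the other way. They included *Aqp7*, *Tecrl*, *Scn7a*, *Plagl1*, the meiotic cohesin *Rec8* (0.24, SE 0.06) and the cytoskeletal genes *Palld* and *Pdlim5*. In *β-cat* LOF, 2 of the lower genes were separated lower (0.448%, beside 0.787% of all genes) and 3 higher. Of the higher genes, 6 were separated higher there (4.08%, beside 2.06% of all genes), among them *Pax6*, *Nkx2-9* and *Cyp26b1*, and 3 lower.

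**Figure D4:**
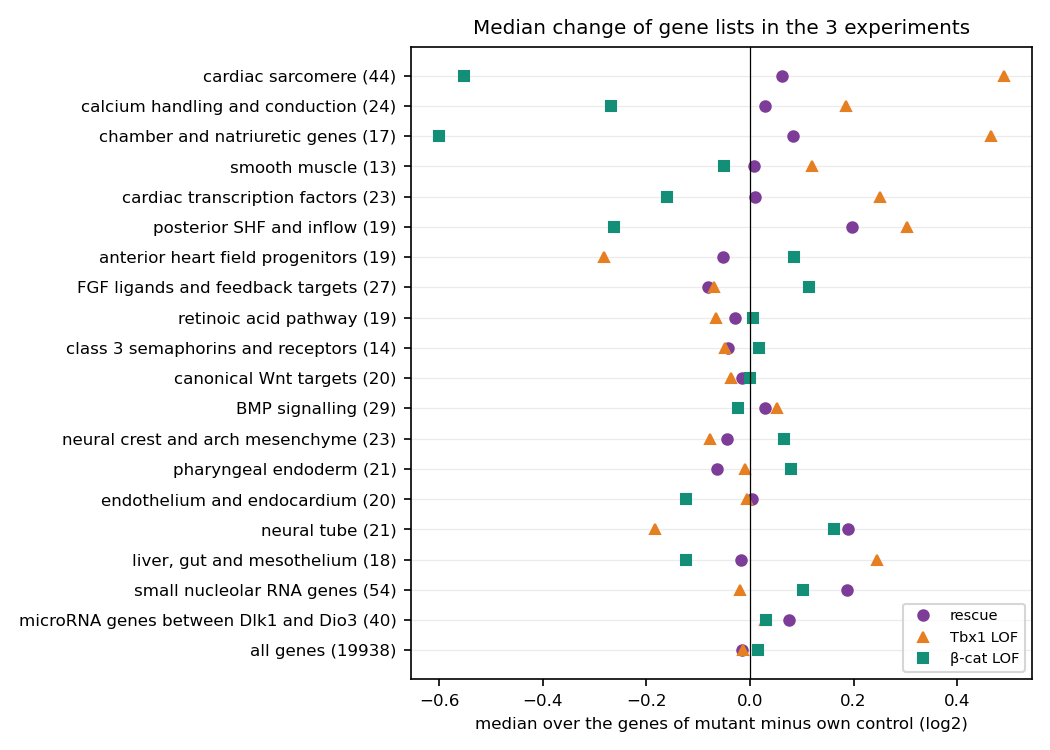
Median over each gene list of mutant minus own control (log2, x axis) in the rescue, *Tbx1* LOF and *β-cat* LOF experiments; the number of measured genes stands in parentheses. The sarcomere median is 0.062 in rescue against 0.49 and −0.55, while that of the posterior list is 0.20 against 0.30 and −0.26.

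The 12 named lower genes of largest change also held genes best known from other tissues. *Prl8a2*, a prolactin relative of the decidua, read 6.46, 6.46, 6.54 and 6.36 in rescue and 7.90, 6.78, 6.62 and 7.04 in controls. It was the gene lower by over 1.5-fold (−0.63, SE 0.22), with control replicate 1 well above the rest. *Akr1e1*, an aldo-keto reductase (−0.39, SE 0.11), had a difference near that of *Tbx1* LOF (−0.40). *Casr*, the calcium-sensing receptor, read 8.07, 8.03, 7.99 and 7.99 against 8.33, 8.42, 8.43 and 8.13 (−0.31, SE 0.07). The rescue arrays lay together below the controls. *Barhl2*, a neural homeobox factor (−0.29, SE 0.07), *Neto1*, a glutamate receptor auxiliary protein (−0.29, SE 0.06), and *AF366264* (−0.30, SE 0.06) completed the 12. Of Notch and endothelial genes, the ligand *Dll4* (−0.16, SE 0.06) and the endocardial factor *Nfatc1* (−0.13, SE 0.05) were separated lower, and the target *Hey1* (−0.11, SE 0.05) overlapped.

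Among the higher genes of largest change, 3 were neural tube transcription factors. *Nkx2-9*, of the ventral neural tube, read 9.28, 9.29, 9.76 and 9.59 in rescue and 8.12, 8.49, 9.03 and 9.21 in controls (0.77, SE 0.22), or 1.71-fold (95% confidence interval 1.22 to 2.38). All rescue arrays were higher, but control replicate 4 came close. *Zic2*, of the dorsal neural tube, read 8.77, 8.60, 8.81 and 8.60 against 7.90, 7.54, 8.37 and 8.50 (0.62, SE 0.18), and *Pax6* 8.74, 8.36, 8.41 and 8.30 against 7.90, 8.20, 8.29 and 8.18 (0.31, SE 0.11). In both, rescue was higher throughout. Values in *Tbx1* LOF ran the other way, at −0.60, −0.85 and −0.41, and those in *β-cat* LOF the same way, at 0.83, 0.34 and 0.49. For *Zic2* the rescue and *Tbx1* LOF effects differed by 1.47 (SE 0.33, limma, adjusted p = 1.0).

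Of 21 measured genes of a neural tube list, 18 had a difference above 0, where 39.1% of all genes did, and the median was 0.19. Of the 21, 1 was separated higher, beside 0.737% of all genes. At p under 0.05, 2 were higher (*Pax6* and *Dbx1*, 0.23, SE 0.08) and 0 lower, where 1.36% and 2.79% of all genes were. The 2 were 9 without control replicate 4, between 1 and 4 without any other array, 0 with all 24 arrays in 1 fit, and 6 with arrays numbered 1 and 2 against 3 and 4 as a term. The mean over the list ran from −0.069 to 0.242 in rescue arrays and from −0.249 to 0.074 in controls, so the groups overlapped. The part of neural tissue in the dissected pools was not tested. Markers of neural crest (median −0.045), pharyngeal endoderm (−0.064), surface ectoderm (−0.029), endothelium (0.003) and blood (0.006) each had at most 2 genes at p under 0.05.

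The other higher genes of largest change had diverse roles. *Apela*, a peptide ligand of the apelin receptor that guides heart progenitors, read 11.52, 11.74, 11.64 and 11.66 in rescue and 11.36, 11.38, 11.31 and 11.38 in controls. The rescue arrays were all higher, by 0.29 (SE 0.05), beside 0.28 in *Tbx1* LOF. *Agtpbp1*, a tubulin-modifying carboxypeptidase (0.23, SE 0.05), *Scrn1*, secernin (0.34, SE 0.08), and *Edil3*, a matrix protein (0.24, SE 0.09), were higher with smaller values in *Tbx1* LOF, at 0.10, 0.09 and 0.19.

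Small RNA genes were frequent among the higher genes. MicroRNA genes made up 1.5% of all genes and 7.48% of the 147 separated higher ones, and small nucleolar RNA genes 0.271% and 2.72%. Of 54 small nucleolar RNA genes, whose products guide modification of ribosomal RNA, 50 had a difference above 0. At p under 0.05, 17 were higher and 0 lower, where 1.36% of all genes were higher, and 4 were separated. The median was 0.188, beside 0.103 in *β-cat* LOF and −0.019 in *Tbx1* LOF. *Snord35a* read 9.99, 9.98, 10.55 and 10.90 in rescue and 9.80, 9.68, 9.30 and 9.55 in controls (0.77, SE 0.20). All rescue arrays were higher, replicates 3 and 4 most. *Snord87* (0.65, SE 0.23), *Snora21* (0.25, SE 0.06) and *Snora31* (0.29, SE 0.09) were the other separated ones, while *Snord47* (0.80) and *Snord53* (0.50) overlapped. *DQ267102*, annotated as a small nucleolar RNA gene but outside this count by symbol, read 10.86, 11.11, 11.55 and 12.06 against 10.77, 10.69, 10.85 and 10.60, with the same replicates highest (0.67, SE 0.21). The mean over the small nucleolar list was −0.061 in rescue replicate 2 and 0.081 to 0.251 in the other 3 rescue arrays, against −0.178 to −0.051 in controls. Many of these genes lie in introns of host genes, and the RNA was amplified as cDNA, so host transcripts and small RNAs may share signal, which was not tested. The count of 17 was 10 without rescue replicate 3, 11 without control replicate 2 and 2 with all 24 arrays in 1 fit.

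**Figure D5:**
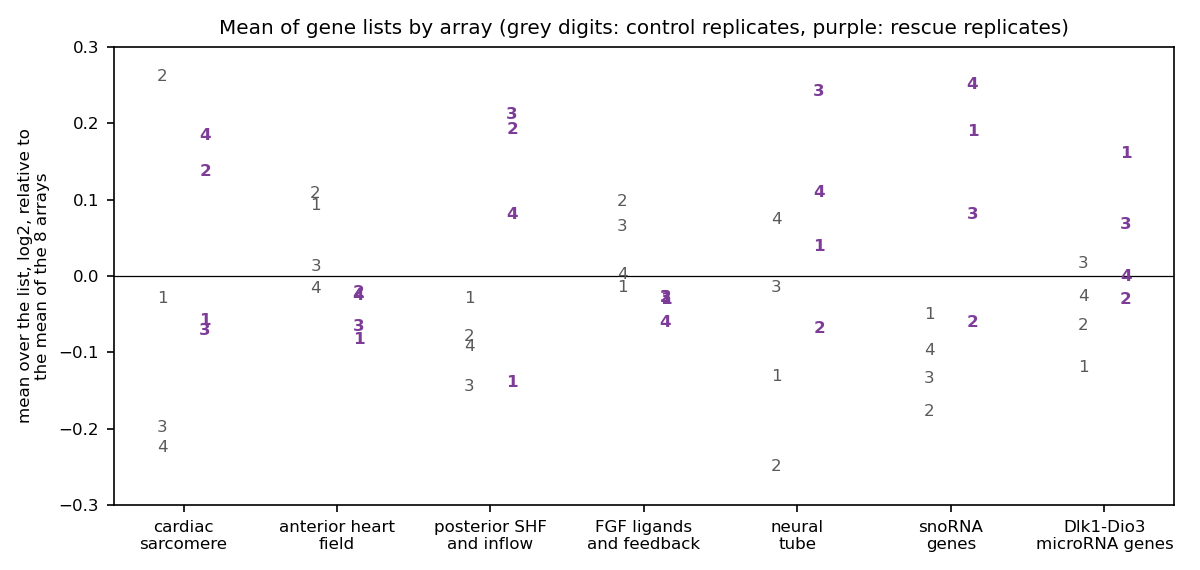
Mean over each gene list of the log2 intensity relative to the mean of the 8 arrays (y axis), with the digit of each control replicate in grey and of each rescue replicate in purple. The sarcomere digits of both groups mix, rescue replicate 1 is with the controls in the posterior list, and rescue replicates 1, 3 and 4 are highest for small nucleolar RNA genes.

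Of 300 microRNA genes, 22 were higher at p under 0.05 and 2 lower, and 11 were separated higher and 1 lower (*Mir122*, −0.17, SE 0.05). The 22 were 11 with all 24 arrays in 1 fit and 10 with the lowest 25% of genes left out. The 2 lower were 15 without control replicate 1, and without both arrays numbered 1 there were 14 higher and 30 lower, so the direction of these counts rested on those arrays. The region between *Dlk1* and *Dio3*, an imprinted stretch of chromosome 12 whose microRNA genes are transcribed from the maternal copy, held 40 of the measured genes and 6 of the 11. Of the 40, 32 had a difference above 0, and the median was 0.076. At p under 0.05, 12 were higher and 0 lower, where 1.36% and 2.79% of all genes were. The mean over these genes, relative to the 8 arrays, was −0.031 to 0.16 in rescue and −0.12 to 0.016 in controls. The groups thus overlapped, with rescue replicate 1 highest and control replicate 1 lowest. The other 260 had 10 higher and 2 lower and a median of −0.002, or 0.008 after repeated quantile normalization. The 6 genes are shown by the mature sequences that RefSeq gives them in build GRCm38.p6, with the seed, bases 2 to 8, in capitals, since the seed sets which transcripts a microRNA can pair with.
miR-299a-5p (chr12:109710644-109710665, + strand): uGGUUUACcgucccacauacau
miR-299a-3p (chr12:109710676-109710697, + strand): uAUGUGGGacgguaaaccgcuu
miR-376b-5p (chr12:109723471-109723492, + strand): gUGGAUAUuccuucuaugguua
miR-376b-3p (chr12:109723508-109723528, + strand): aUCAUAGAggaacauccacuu
miR-376a-5p (chr12:109723786-109723807, + strand): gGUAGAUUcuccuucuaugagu
miR-376a-3p (chr12:109723824-109723844, + strand): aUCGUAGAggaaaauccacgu
miR-539-5p (chr12:109728136-109728157, + strand): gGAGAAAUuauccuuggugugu
miR-668-5p (chr12:109734733-109734756, + strand): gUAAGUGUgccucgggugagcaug
miR-668-3p (chr12:109734774-109734797, + strand): uGUCACUCggcucggcccacuacc
miR-496a-5p (chr12:109739132-109739152, + strand): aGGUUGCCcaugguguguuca
miR-496a-3p (chr12:109739165-109739186, + strand): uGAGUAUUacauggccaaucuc

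No 2 of these seeds are identical, so the 6 genes were not 1 seed family. *Mir299a* read 5.48, 5.68, 5.91 and 5.78 in rescue and 5.42, 5.32, 5.42 and 5.42 in controls, higher in every rescue array by 0.31 (SE 0.08). *Mir496a* read 5.94, 5.86, 6.03 and 5.86 against 5.79, 5.72, 5.75 and 5.72 (0.18, SE 0.05), and *Mir668* 8.20, 8.15, 8.22 and 8.25 against 8.08, 8.02, 8.11 and 8.06 (0.14, SE 0.04). *Mir376a* (0.17), *Mir376b* (0.14) and *Mir539* (0.17) were separated too. The other separated microRNA genes were *Mir199b* (0.29), *Mir10b* (0.16), *Mir16-2* (0.10), *Mir693* (0.11) and *Mir452* (0.08). In *Tbx1* LOF the 6 genes of the region had values of −0.02 to 0.07. *Mir376a*, at 4.21 to 4.52, was near the lowest values of the arrays (3.71), and when the lowest 25% of genes were left out, 2 of the 11 separated microRNA genes were left. The probe sets cover microRNA genes and the labelled material was cDNA made from total RNA, so mature microRNAs were not measured as such.

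Protein-coding genes of imprinted regions were also among the separated genes. The imprinted list was made after these values were seen. Of its 48 measured genes, 6 were higher at p under 0.05 and 0 lower, where 1.36% and 2.79% of all genes were. Separated genes were 6 higher and 0 lower, beside 0.737% and 2.24% of all genes. Since the list followed from these values, the counts are not evidence about imprinted genes as a group. *Plagl1*, a growth-suppressing zinc finger factor, read 11.77, 11.74, 11.75 and 11.80 in rescue and 11.62, 11.56, 11.48 and 11.62 in controls. All rescue arrays were higher, by 0.20 (SE 0.04), beside −0.27 in *β-cat* LOF and 0.38 in *Tbx1* LOF. *Dlk1*, a Notch ligand relative that bounds the microRNA region, read 12.90, 12.92, 12.96 and 12.93 against 12.74, 12.73, 12.89 and 12.88, a separation of small size (0.11, SE 0.05). *Meg3*, a maternal noncoding RNA of the same region, differed by 0.19 (SE 0.06) and overlapped. *Magel2* (0.17, SE 0.04) and *Pon2* (0.17, SE 0.05) were separated and passed, while *Igf2* (0.04) and *Cdkn1c* (0.08) were separated without passing p under 0.05.

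*Aqp7* was the single gene called higher in *Tbx1* LOF after adjustment, in the fit of all 24 arrays, and it remained higher in rescue. Its promoter is shown for that and because it holds the letters of a T-box site. RefSeq gives these 250 bases before its start in build GRCm38.p6 (chr4:41048137-41048386, − strand), with the match in capitals.
Aqp7: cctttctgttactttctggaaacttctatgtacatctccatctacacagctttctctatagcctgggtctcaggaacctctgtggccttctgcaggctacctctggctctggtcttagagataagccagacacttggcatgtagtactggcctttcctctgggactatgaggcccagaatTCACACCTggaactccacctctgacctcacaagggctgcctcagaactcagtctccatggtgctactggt

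The capitals are AGGTGTGA on the other strand, and they start 70 bases before the gene start. RefSeq holds a second start of *Aqp7* (window chr4:41047963-41048212), and the same match lies 244 bases before that one. These letters, on either strand, were in the promoters of 175 of 15614 genes (1.12%), of 2 of the 355 separated lower genes with a sequence (0.563%) and of 1 of the 107 separated higher ones (0.935%). The shorter core GGTGTG, which the longer letters contain, was in 18.5%, 20.6% and 17.8% of them, and the TCF/LEF letters CTTTGAT were in 3.32%, 2.54% and 3.74%.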

How the data were processed

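Gene expression was measured in 24 pools of dissected AHF tissue, of which the 8 of the rescue experiment were analysed (4 rescue, 4 control). The deposited log2 values are the authors' RMA output from the oligo package (arrays background-corrected, made alike by quantiles and summarized per transcript cluster), from 100 ng of RNA amplified to cDNA. The methods also describe ComBat and a batch block. No source used here gives each array's batch or says whether the values include ComBat, and neither step was repeated, so an effect of batch was not tested. The 35556 probe sets comprised 21789 with a single symbol, which were averaged per gene, and 1621 with several and 12146 without any, which were not used. Values ran from 3.71 to 14.5, and the array medians from 8.04 to 8.14. The number of arrays limits the precision.

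Differences were tested with limma 3.58.1 in R 4.3.3 (lmFit and eBayes, two-sided), with Benjamini-Hochberg adjustment over 19938 genes. Effects of *Tbx1* LOF and *β-cat* LOF, and their differences from the rescue effect, came from 1 fit of all 24 arrays with 6 group means. "Separated" means that all 4 rescue arrays lay above or below all 4 controls. Genes named are, in each direction, the 12 of largest change among separated genes at p under 0.05 (predicted, microRNA, small nucleolar RNA, olfactory and vomeronasal receptor genes are counted, not named), the genes the study names, and up to 4 members of smallest p per list; others, including the small RNA, imprinted and shared genes, were named after their values were seen. The members and gene lists were chosen with earlier results of these data known. Alternatives were the 24-array fit, terms for replicate number and for numbers 1 and 2 against 3 and 4, each array left out, probe set choice, a filter on low values, 2 scalings and another variance model. The model was tested on simulated data. Some list members were not analysed here. Pandas 2.3.3 and matplotlib 3.10.9 in Python 3.11.15 were used for tables and figures.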

Additional observations from a re-analysis of the deposited data

Results flagged for a closer look

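Single arrays stood far from the other 3 of their group in 9 of 202 groups of 4 arrays examined (101 named genes), where chance gives about 1 in 20. In controls these were replicate 4 for *Barhl2* (8.68), replicate 2 for *Csrp3*, a muscle LIM protein (9.42), and replicate 2 for *Mir299a* (5.32). In rescue they were replicate 4 for *Cacna1h* (9.11) and *Snora21* (9.09), replicate 1 for *Grem1* (9.68) and *Mir376a* (4.52), replicate 2 for *Etv2* (8.92) and replicate 3 for *Igf2* (13.55, in a group with a narrow range). *Prkcb* was separated lower in rescue (−0.35) and separated higher in *β-cat* LOF (0.14). This opposite separation was found by looking at the arrays of each experiment. The difference between the 2 effects has a limma p of 0.00041 and did not pass adjustment.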

How the results depend on the processing

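No gene passed an adjusted p under 0.05 in rescue under any alternative run, so the counts below are at unadjusted p and have no error rate over all genes. With 1 array left out, genes higher and lower at p under 0.05 ranged from 187 to 436 and from 371 to 1004, over 1.5-fold from 4 to 16 and from 0 to 2, over 1.3-fold from 17 to 43 and from 2 to 9, and separated genes from 232 to 469 and from 653 to 1098 (more, since fewer arrays must separate). Counts over 1.5 times away were 423 (rescue replicate 1) and 436 (control replicate 3) higher and 1004 (control replicate 1) lower at p under 0.05, 16, 15, 15 and 4 higher over 1.5-fold (rescue replicates 1 and 2, control replicate 4, rescue replicate 4), 43 higher over 1.3-fold (rescue replicate 1), and 2, 9 and 9 lower (control replicates 2, 3 and 4). All 24 arrays in 1 fit gave 74 and 179 genes at p under 0.05, 2 and 0 over 1.5-fold, and 8 higher over 1.3-fold. Quantile normalization again gave 445 higher at p under 0.05 and 259 separated higher. The filter on low values left 0 lower over 1.5-fold. Leaving out both arrays numbered 1, an alternative chosen after seeing the data, gave 615 and 932 at p under 0.05, 17 and 0 over 1.5-fold, 48 higher over 1.3-fold, and 1068 and 1785 separated.

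Deviations of rescue and control arrays of the same number had correlations of −0.064, 0.0963, 0.256 and 0.0005. Those of different numbers ran from −0.223 to 0.191, so number 3 alone stood above them. As the other numbers did not, the numbers were not taken as pairs. With the number as a replicate block, 351 and 596 genes passed p under 0.05, 9 neural tube genes higher among them. In the tests of the difference from *Tbx1* LOF the replicate block gave 238 genes above and 312 below, and from *β-cat* LOF 622 above and 2 at an adjusted p. With 1 array left out, the difference from *Tbx1* LOF gave 81 to 354 above, 106 to 349 below and 0 to 1 at an adjusted p, and from *β-cat* LOF 233 to 626, 284 to 1019 and 0 to 1, the highest without *Tbx1* mutant replicate 2, *β-cat* control replicate 4 and rescue control replicate 1. Of 101 named genes under 17 settings each (14 of them under 1 fewer), 4 values changed sign, all of genes near 0: *Hand1* (−0.0991 to 0.10 with 1 array left out) was 0.10 without control replicate 2 and 0.0234 without rescue replicate 3, *Srf* 0.0074 without both arrays numbered 1, and *Cldn1* (−0.0333 to 0.137 with 1 array left out) −0.0333 without control replicate 2. Of the other values, 164 no longer had p under 0.05. The cause was not tested.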

Other observations

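Gene groups outside the heart and pharyngeal pathways had few genes past p under 0.05, where 1.36% of all genes were higher and 2.79% lower. The counts of these groups are close to those shares. Of 32 measured genes of the mouse region homologous to human 22q11.2, the segment deleted in DiGeorge syndrome, *Tbx1* was the gene lower at p under 0.05, 0 were higher, and the median was −0.022. Of 29 cell cycle genes 1 (*Top2a*, a topoisomerase) was higher and 0 lower, of 20 p53 target and apoptosis genes 0 passed, and of 42 mitochondrial respiration genes 1 (*Sdhd*) was lower. Of 18 cholesterol synthesis genes 0 passed in either direction, with a median of −0.015, beside −0.287 in *β-cat* LOF. Of 68 ribosomal protein genes 0 passed and the median was 0.003, in contrast in count to the 17 of 54 small nucleolar RNA genes. Of 18 liver, gut and mesothelium genes 0 passed, with a median of −0.017 beside 0.246 in *Tbx1* LOF.

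The primary transcript of the miR-17 cluster, a regulator of cell proliferation, is represented by *Mir18* and *Mir19a*. *Mir18* read 9.40, 9.06, 9.71 and 9.37 in rescue and 8.84, 9.09, 8.72 and 9.01 in controls, a difference of 0.47 (SE 0.13), and rescue replicate 2 lay below 1 control. *Mir19a* read 8.07, 7.65, 8.11 and 8.02 against 7.55, 7.71, 7.18 and 7.78, a difference of 0.41 (SE 0.13). Both were higher at p under 0.05, with overlap. Values in *Tbx1* LOF were −0.23 and −0.25. *Tbx3*, a T-box factor of the posterior field and conduction system, was lower at p under 0.05 (−0.15, SE 0.06), with control replicate 4 at the rescue level.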
